A study of Mus musculus with 6 samples.

Results

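M2-like macrophages from the infarcted mouse heart were compared with M2-like macrophages from the peritoneal cavity. The comparison used 4 of the 6 arrays of the study, and the arrays were assigned to their group by sample title. The MI heart group (heart with myocardial infarction) held 2 arrays and the peritoneal cavity group held 2 arrays. The remaining 2 arrays came from macrophages of the intact heart, and they entered the normalization, the detection filter, the estimate of the spread and 1 side-by-side description. All mice were of strain C57BL/6 and aged 10 weeks, and no genetic change or drug is named for any group. The series title defines the cells as positive for CD206 (the mannose receptor, encoded by Mrc1), F4/80 (Adgre1) and CD11b (Itgam). The labels give no sham-operated group, no time after infarction, no dissociation or sorting protocol and no number of animals per array. Nor do they state that replicate arrays came from different animals, so the p-values rest on a spread between arrays that may be purely technical.

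Macrophages take on a tissue programme from the site where they live. Large macrophages of the peritoneal cavity float in the fluid of an unbroken cavity, depend on the transcription factor GATA6 and retinoic acid, and supply clotting factors and other secreted proteins. Heart macrophages lie between muscle cells, clear debris and present antigen, and after an infarction monocytes from the blood enter the damaged muscle and join the resident cells. Infarct macrophages are known for early release of inflammatory signals and later for signals of vessel growth and scar formation.

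Bead arrays report a brightness per probe, given here as normalized log2 intensity, on which 1 unit is a doubling. Differences are MI heart minus peritoneal cavity on that log2 scale, with their standard error (± SE, n = 2 arrays per group). Adjusted p-values are from limma's two-sided moderated test with Benjamini-Hochberg adjustment over 10533 tests, and a gene was called at an adjusted p under 0.05. A gene counted as above background on an array if any of its probes was, even where the probe shown was not. If a gene stayed below background on both arrays of the dimmer group, the fold is given as "at least", against the lowest signal above background. MI heart arrays had 14023 and 14473 of 45281 probes above background, against 14091 and 14606 on peritoneal arrays. Across genes, which are not independent replicates, the correlation was 0.980 within MI heart, 0.977 within peritoneal cavity and between 0.861 and 0.870 across the groups. Each gene is given by its brightest probe, and folds and bounds hold for that probe alone. Called dimmer probes could differ less, as in Ccl4 (1.71 against 6.66), Ccl7 (1.46 against 4.28) and Fcrls (1.10 against 4.28). The same held for Il1a (1.40 against 4.03), Slamf7 (1.20 against 3.81) and Apoc1 (-0.95 against -3.25). Among the called genes named below, at least 1 dimmer probe of Acaa2, Aldh1a2, Axl, Bcam, Cd163, Cd209b, Cdca8, Ciita, Csf3r, Dcn, Egln3, Gpnmb, H2-DMb2, Ifit3, Itga4, Itgav, Lpl, Lyz2, Mmp13, Nfkbie, Pfkfb4, Rdh11, Runx1, Slc16a3, Sparc, Tirap and Vegfa was not called. The dimmer probes of Slc16a3 (-0.03) and Tirap (0.22) lay on the other side of 0. Called genes counted in the lists but not named there also had uncalled probes, such as Cd44 (6 of 9 probes called). Among these, Fcgr2b and Cd80 had probes down to -0.25 and -0.14, on the other side of 0. The arrays measure pooled cells, in which fewer cells of a type and less RNA per cell cannot be told apart.

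MI heart macrophages had 966 genes and unnamed probes higher than peritoneal macrophages, or 9.17% of the 10533 tests, and 892 lower, or 8.47%. Of these, 803 and 753 carried a gene name, and 170 and 79 differed by more than 4-fold. The median difference of all tests was -0.05. Arrays of the groups did not overlap in 27.3% of tests with MI heart higher and in 33.7% with MI heart lower. The number of calls depended on each array: without MI heart replicate 1 there were 533 higher and 384 lower, without MI heart replicate 2 510 and 342, without peritoneal replicate 1 481 and 399, and without peritoneal replicate 2 483 and 423. Where a count in a gene list below moved by over 1.5 times with 1 array left out, its value is added for MI heart replicates 1 and 2 and peritoneal replicates 1 and 2, in that order. Lists were limited to members past the detection filter, which a gene can pass through the brighter group alone, so their counts are descriptions beside the 9.17% and 8.47% of all tests. In the macrophage lists with 0 calls in a direction, an unadjusted p under 0.05 in that direction was reached by Cmklr1 among chemoattractant receptors (lower), by 2 genes of the citric acid cycle and oxidative phosphorylation (higher) and by 2 of fatty acid oxidation (higher), and by 0 genes of the other such lists.

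**Figure D1:**
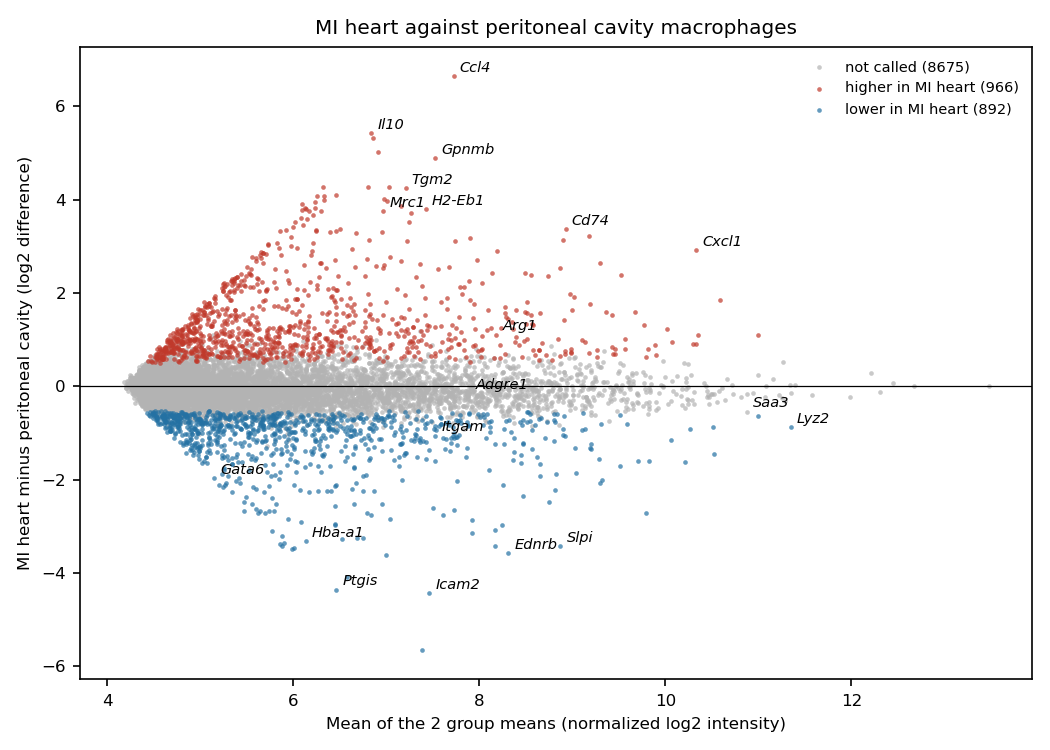
Each point is 1 gene or unnamed probe, with the mean of both group means on the horizontal axis (normalized log2 intensity) and the MI heart minus peritoneal cavity difference (log2) on the vertical axis. Red points are the 966 called higher in MI heart, blue points the 892 called lower and grey points the 8675 not called, with Ccl4 at 6.66 and Icam2 at -4.43 as the named genes farthest from 0 in each direction.

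Of the genes that define the cells, Mrc1 differed most. It had 8.63 and 9.06 on MI heart arrays, against 5.19 and 4.99 on peritoneal arrays, a 13.5-fold difference (3.76 ± 0.19, adjusted p = 5.51e-06). Both peritoneal arrays were above background for Mrc1, so its transcript was measured in both groups. Adgre1 had 7.50 and 8.15 in MI heart and 7.73 and 8.19 in peritoneal cavity, and the groups overlapped (-0.14, adjusted p = 0.78). Of 3 Adgre1 probes tested, 1 was called lower, and their differences lay between -0.80 and -0.14. Itgam was lower in MI heart, with 7.14 and 6.85 against 8.15 and 7.95 (-1.05 ± 0.24, adjusted p = 0.015), a call that was lost when any 1 of the 4 arrays was left out (adjusted p up to 0.16). Of 10 tested genes of macrophages in general, 4 were higher, 1 was lower and 5 were not called. Aif1, an actin-binding protein, rose 4.39-fold, and Cd14, a co-receptor for bacterial lipopolysaccharide, rose 3.14-fold. Lyz2 (lysozyme) was 1.84-fold lower in MI heart, a call lost without either MI heart array or peritoneal replicate 1, leaving 0 lower. The growth factor receptor Csf1r (0.05) and the adaptor Tyrobp (-0.10) gave no call, so macrophage genes were at hand in both groups.

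Markers of other cells were not equal in the groups. Among the endothelial markers 14 of 15, Pecam1 and Vwf included, did not pass the detection filter. This filter asks for both arrays of some group above background. Of the cardiomyocyte markers, Myh7, Actc1 and Tnni3 did not pass it, while others such as Myh6, Mb and Ttn did. Myh6 was above background on both intact heart arrays and on 0 MI heart and 0 peritoneal arrays. Fibroblast markers were higher in MI heart for 5 of 8 tested genes (Bgn, Fstl1, Col1a1, Col5a1 and Dcn) and lower for 0, with a summed linear intensity of 269 and 264 in MI heart against 153 and 157 in peritoneal cavity. Of these, Col5a1 and Dcn lost their call without any 1 of the 4 arrays, leaving 3. Cardiomyocyte markers were higher for 2 of 9 (Myl2 and Myl3, 0 without any 1 of the 4 arrays) and lower for 1 (Ryr2, 0 without MI heart replicate 1 or peritoneal replicate 2), with sums of 315 and 323 against 261 and 265. The neutrophil marker S100a9 was uneven in MI heart, at 7.24 and 5.42, and not above background in peritoneal cavity, at 4.35 and 4.25, and its call was lost without either peritoneal array. Csf3r, the receptor for a granulocyte growth factor, was the 1 lower neutrophil marker (-0.81 ± 0.17), and it lost its call without any 1 of the 4 arrays. Mast cell, basophil and eosinophil markers other than Hdc were not tested, and Hdc, which makes histamine, was lower in MI heart, at 8.35 and 7.43 against 9.80 and 9.72 (-1.87 ± 0.27, adjusted p = 0.00139). Mesothelial (3 tested), smooth muscle (5), T and NK cell (1) and endothelial (1) lists had 0 calls in limma's test, with 1 of these 10 genes at an unadjusted p under 0.05 (the pericyte marker Rgs5, 0.65, adjusted p = 0.062, called without either intact heart array). The part of these cells in the results below was not tested.

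Among genes above background on all 4 arrays, Gpnmb rose most in MI heart macrophages. Gpnmb encodes a membrane glycoprotein of lipid-laden and scar-associated macrophages. It had 9.70 and 10.24 on MI heart arrays, against 5.17 and 5.00 on peritoneal arrays, a 29.7-fold difference (4.89 ± 0.27, adjusted p = 8.04e-06). Fcrls, an Fc receptor-like scavenger gene known from mouse microglia, had 8.53 and 9.36 against 4.80 and 4.52 (19.5-fold). Lhfpl2, a tetraspan membrane protein, had 9.12 and 9.20 against 4.50 and 5.27 (19.4-fold). Tgm2, the cross-linking enzyme transglutaminase 2, had 9.56 and 9.10 against 5.16 and 5.01 (18.9-fold). Of 4 Gpnmb probes tested, 3 were called higher, with differences between 0.64 and 4.89, and their mean gave 2.51. In each of these genes both MI heart arrays lay more than 3 log2 units above both peritoneal arrays. The cytokine gene Il1a rose 16.3-fold, the G-protein regulator Rgs1 14.5-fold, H2-Eb1 13.9-fold and the chemerin-binding receptor Ccrl2 13.2-fold. Hspa1a, an inducible chaperone, rose 15.8-fold, but its probe may not separate it from the near-identical Hspa1b.

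Other genes were high in MI heart and not above background on either peritoneal array. Il10, which encodes the cytokine that restrains macrophage activation, had 9.26 and 9.84 in MI heart, against 4.11 and 4.14 in peritoneal cavity, and was at least 34.8-fold higher (adjusted p = 1.06e-05). Cd83, a membrane protein of activated antigen-presenting cells, had 9.49 and 9.55 against 4.23 and 4.16 and was at least 34.0-fold higher (adjusted p = 4.8e-07). Next came the monocyte-attracting chemokine Ccl7 (at least 16.3-fold), Cxcl10 (15.3-fold), the antiviral gene Rsad2 (14.9-fold), Il1b (13.7-fold), the SLAM family receptor Slamf7 (13.1-fold) and the AP-1 subunit Fosb (12.3-fold). The largest named difference of all was in Ccl4, at 11.17 and 10.93 in MI heart against 4.51 and 4.27 in peritoneal cavity (6.66 ± 0.18, adjusted p = 4.8e-07). Ccl4 was above background on 1 of 2 peritoneal arrays, and its other probe was called higher with a smaller difference (1.71).

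**Figure D2:**
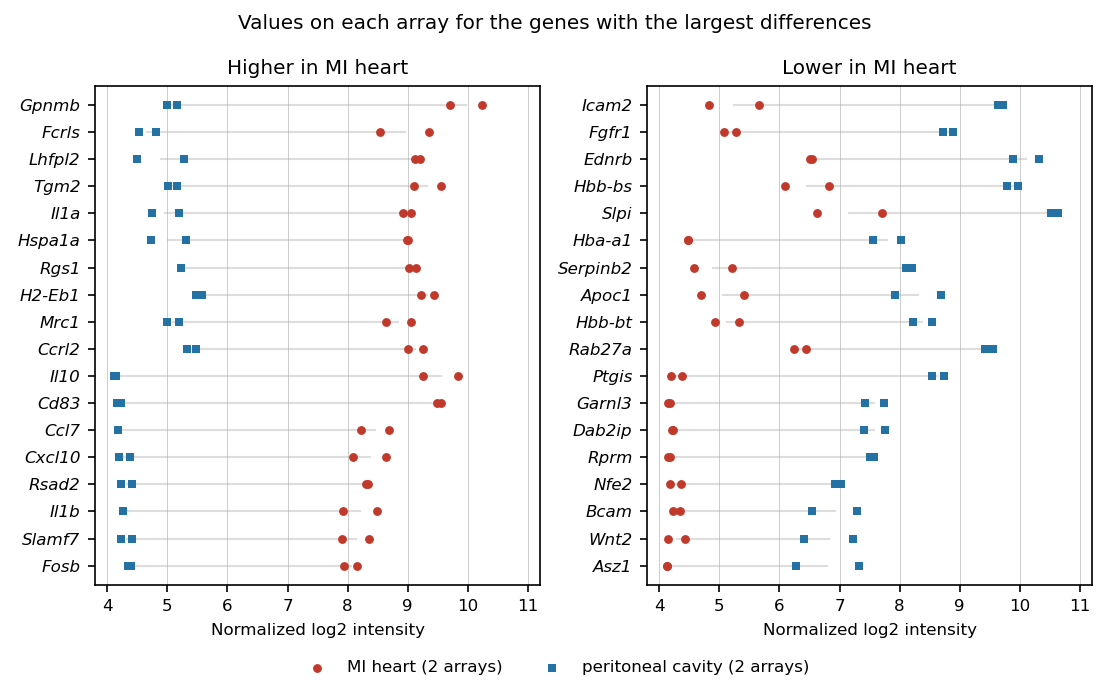
Normalized log2 intensity on the horizontal axis for the named genes with the largest differences, as red circles for the 2 MI heart arrays and blue squares for the 2 peritoneal arrays, with a grey line joining the group means. In each panel the upper 10 genes were above background on all 4 arrays and the lower 8 were not above background on any array of the dimmer group. The upper 10 genes were chosen among those whose groups do not overlap, and the groups do not overlap in the lower 8 either.

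The largest decrease in MI heart was in Icam2, an adhesion molecule that marks large peritoneal macrophages. It had 5.65 and 4.83 on MI heart arrays, against 9.71 and 9.64 on peritoneal arrays, a 21.6-fold difference (-4.43 ± 0.25, adjusted p = 8.11e-06). The growth factor receptor Fgfr1 had 5.08 and 5.28 against 8.89 and 8.72 (12.3-fold lower), and the endothelin receptor Ednrb had 6.51 and 6.54 against 10.32 and 9.88 (11.9-fold lower). Slpi, a secreted protease inhibitor, had 7.70 and 6.62 against 10.52 and 10.63 (10.7-fold lower), and the MI heart arrays lay further apart than the peritoneal ones. Serpinb2, an inhibitor of plasminogen activators inside cells, was 9.64-fold lower, the apolipoprotein gene Apoc1 9.52-fold and Rab27a, which moves secretory vesicles, 8.84-fold. Ptgis, the enzyme that makes prostacyclin, had 4.20 and 4.37 in MI heart, not above background, against 8.73 and 8.55 in peritoneal cavity, and was at least 18.4-fold lower (adjusted p = 2.42e-06). Garnl3 and Dab2ip, regulators of small GTPases, were both at least 8.83-fold lower, the cell cycle gene Rprm 8.57-fold, the transcription factor Nfe2 5.79-fold, the adhesion molecule Bcam 5.58-fold (1 of its 2 probes was called), the secreted signal Wnt2 5.21-fold and the germ cell gene Asz1 5.13-fold. The unnamed probe ILMN_2668333 lay further from 0 than any named gene in this direction, at 4.59 and 4.53 in MI heart against 10.14 and 10.29 in peritoneal cavity (-5.65 ± 0.16).

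Haemoglobin transcripts were also among the largest decreases. Hba-a1, the alpha chain, had 4.47 and 4.48 on MI heart arrays, against 7.55 and 8.03 on peritoneal arrays (-3.31 ± 0.19, adjusted p = 9.66e-06). The beta chain genes Hbb-bs (6.82 and 6.10 against 9.78 and 9.98) and Hbb-bt (5.33 and 4.93 against 8.22 and 8.53) were lower as well, and as near-identical copies they may share signal. Hba-a1 was the 1 tested member of the red cell marker list, and Alas2 and Slc4a1, which developing and mature red cells also express, did not pass the detection filter. Whether red cells contributed to the peritoneal RNA was not tested.

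The programme of large peritoneal macrophages was lower in MI heart for 14 of 19 tested genes and higher for 0, with a median difference of -2.11 (-1.82 with genes below background set at their bound). Of 20 of its genes named on the array, 19 passed the filter. Gata6, the transcription factor of that programme, had 4.13 and 4.21 in MI heart, not above background, against 6.38 and 5.89 in peritoneal cavity, and was at least 3.24-fold lower. Rarb, a retinoic acid receptor, was also lower (-1.29 ± 0.18), and was above background on 1 MI heart array. Among adhesion genes, Selp (P-selectin) fell along with Icam2 (-4.09 ± 0.18), above background on 1 of 2 MI heart arrays. Of secreted products, the B cell-attracting chemokine Cxcl13 had 5.16 and 5.17 against 7.91 and 7.55 (5.93-fold lower), and Tgfb2 was at least 3.52-fold lower. Alox15, the lipoxygenase that oxidizes membrane lipids, had 4.44 and 4.17 against 6.80 and 7.16 (-2.67 ± 0.18). The Alox15 probe shown lay below the lowest signal above background on both MI heart arrays, so the size of this difference is uncertain. The complement receptor Vsig4 was 4.78-fold lower, F5 fell by 2.21, and F10 by 1.15 on the log2 scale. With 1 array left out, 12 to 14 of these genes were called. Under a stricter detection filter, which left genes out of the test, 3 were called. Members without a call were Thbs1 (-0.11), Gask1b (-0.23), Cd93 (-0.31), Aspa (-0.48) and the acute-phase gene Saa3 (-0.54).

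**Figure D3:**
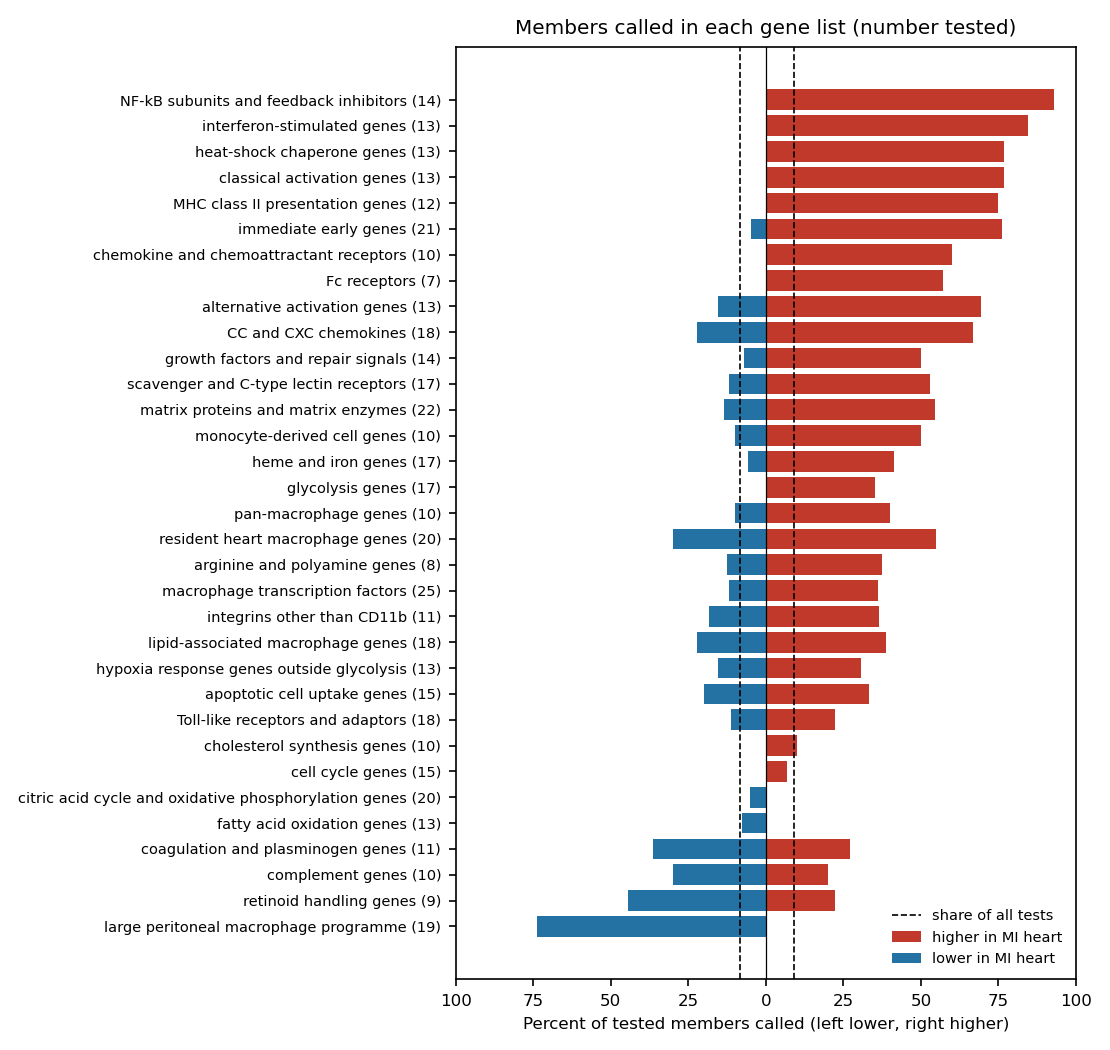
Percent of the tested members of each gene list called higher (red, to the right) or lower (blue, to the left) in MI heart, with the number tested in parentheses. Dashed lines mark the shares over all tests, 9.17% higher and 8.47% lower. The large peritoneal macrophage programme had 14 of 19 members lower and 0 higher.

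Genes linked with resident heart macrophages went both ways, with 11 of 20 tested genes higher, 6 lower and 3 not called (median 0.69). Counts higher were 7, 6, 7 and 6 with 1 array left out. The folate receptor Folr2 had 7.03 and 7.09 in MI heart, against 4.71 and 4.98 in peritoneal cavity (4.65-fold, adjusted p = 4.1e-05). The haemoglobin scavenger receptor Cd163 had 9.32 and 9.38 against 7.38 and 6.47 (5.37-fold), and the carbonyl reductase Cbr2 rose 4.16-fold. Gas6, which links apoptotic cells to their receptors, was at least 6.32-fold higher, Ccl8 at least 3.77-fold and the fractalkine receptor Cx3cr1 at least 2.43-fold. Lower genes included Timd4, a phosphatidylserine receptor of long-lived macrophages of several tissues, at 5.37 and 4.92 against 7.49 and 7.26 (4.70-fold lower), and the lectin Fcna (5.11-fold lower), besides Ednrb and Fgfr1. The hyaluronan receptor Lyve1 was above background on both MI heart arrays and 1 peritoneal array, with overlapping values (0.45, adjusted p = 0.33).

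Genes linked with monocyte-derived cells were higher for 5 of 10, lower for 1 (Itga4) and not called for 4 (median 0.71), and 2, 3, 2 and 1 were higher and 1, 0, 0 and 0 lower with 1 array left out. Itga4 lost its call without any 1 of the 4 arrays. Plac8 was the one member that kept its call throughout, at 7.22 and 7.01 in MI heart, against 4.31 and 4.26 in peritoneal cavity, or at least 6.42-fold higher. The monocyte chemokine receptor Ccr2 had 4.49 and 4.59 against 4.23 and 4.24 and gave no call (0.31, adjusted p = 0.21), and it was above background on both MI heart arrays and on 0 peritoneal arrays. Chil3, a chitinase-like protein, had 6.72 and 8.28 against 5.00 and 5.88, and its call was lost without MI heart replicate 2 or either peritoneal array (adjusted p up to 0.19). MI heart replicate 2 was the higher array for Chil3 and the lower one for S100a9.

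Genes of MHC class II presentation, by which macrophages show peptides to helper T cells, were higher in MI heart for 9 of 12 tested members and lower for 0 (median 1.26). Cd74, the invariant chain, had 10.68 and 10.54 on MI heart arrays, against 7.34 and 7.15 on peritoneal arrays (10.3-fold, adjusted p = 8.11e-06). The class II chains H2-Ab1 (10.52 and 10.41 against 7.13 and 7.53, 8.81-fold) and H2-Eb1 moved with it. H2-Aa had 6.76 and 6.36 against 4.53 and 4.25 (2.18 ± 0.22) and was above background on 1 peritoneal array. The peptide loader gene H2-DMb1 rose 3.37-fold. The master regulator Ciita had 5.30 and 4.67 against 4.12 and 4.14, close to background, and its call (adjusted p = 0.0473) was lost without any 1 of the 4 arrays. Counts were 5, 6, 6 and 6 with 1 array left out, and H2-DMa, H2-DMb2 and Ifi30 were the other members to lose a call. Markers of dendritic cells, which also present antigen, were higher for 0 of 5 tested genes and lower for 1 (Fscn1, -2.40 ± 0.27), with sums of 124 and 107 in MI heart against 251 and 185 in peritoneal cavity, and Flt3, Zbtb46, Xcr1 and Clec9a did not pass the detection filter. B cell markers were higher for 1 of 4 (Blnk, 0 without MI heart replicate 2 or either peritoneal array), and Ms4a1 and Pax5 did not pass the detection filter.

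Chemokines were split by gene. In MI heart 12 of 18 were higher, 4 were lower and 2 were not called (median 2.36, or 2.25 with genes below background at their bound). Besides Ccl4 and Ccl7, the ligands of monocytes Ccl2 (at least 4.38-fold), Ccl12 (at least 5.69-fold) and Ccl3 (at least 7.61-fold) were higher and were not above background in peritoneal cavity. The neutrophil-attracting Cxcl1 was bright in both groups, with 11.95 and 11.63 in MI heart against 8.76 and 8.97 in peritoneal cavity (7.57-fold, adjusted p = 1.06e-05), and Cxcl2 had 9.77 and 9.64 against 7.10 and 7.47 (5.37-fold). Cxcl9 and Cxcl10, ligands that attract T cells, were at least 6.36-fold and 15.3-fold higher. Cxcl16, a membrane-bound chemokine, rose 5.19-fold. In the other direction lay Cxcl13, Ccl24, an eosinophil-attracting chemokine (4.54 and 4.42 against 6.51 and 6.78), Pf4 (2.23-fold lower) and Cxcl12 (-1.09 ± 0.16). Pf4 lost its call without MI heart replicate 2 or peritoneal replicate 1 (adjusted p up to 0.14).

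Receptors for chemokines and other attractants were higher for 6 of 10 and lower for 0 (median 1.07), with 4, 5, 5 and 4 higher when 1 array was left out. Cxcr4, the receptor of Cxcl12, had 7.59 and 7.60 in MI heart, against 4.24 and 4.26 in peritoneal cavity, where it was not above background, and was at least 8.97-fold higher (adjusted p = 2.82e-06). The receptor for platelet-activating factor, Ptafr, rose 2.50-fold. C5ar1, the receptor for complement fragment C5a, rose 2.41-fold and lost its call without either MI heart array or peritoneal replicate 2 (adjusted p up to 0.086).

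Genes of classical activation were higher for 10 of 13 tested members and lower for 0 (median 2.17, or 2.05 at bounds). Il1b had 8.49 and 7.92 on MI heart arrays, against 4.26 and 4.26 on peritoneal arrays. Tnf had 6.39 and 6.58 against 4.51 and 4.12, above background on 1 of 2 peritoneal arrays (2.17 ± 0.20, adjusted p = 0.000111). Acod1, the enzyme that makes itaconate, rose 10.2-fold (8.42 and 7.42 against 4.55 and 4.58), and the prostaglandin-forming enzyme Ptgs2 was at least 4.14-fold higher. Nos2, Il6, Il12a and Ido1, which classically activated macrophages can express, did not pass the detection filter.

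Genes of alternative activation were higher for 9 of 13 and lower for 2 (median 1.11), with 7, 5, 4 and 5 higher when 1 array was left out. Il10, Tgm2, the receptor antagonist Il1rn (7.88 and 8.01 in MI heart, against 4.46 and 4.25 in peritoneal cavity, above background on 1 of 2) and the nuclear receptor Pparg (at least 2.28-fold) rose and kept their calls. Arg1, which encodes arginase 1, was bright in both groups, with 9.10 and 8.37 against 7.51 and 7.74 (2.16-fold, 1.11 ± 0.23, adjusted p = 0.0112). That call was lost without MI heart replicate 1 or either peritoneal array (adjusted p up to 0.13). Retnla, a secreted protein that interleukin 4 induces, went the other way with Ccl24, at 4.43 and 4.67 against 6.91 and 6.71 (-2.26 ± 0.21). The lectin Clec10a did not differ by call (0.46, adjusted p = 0.18). In the arginine and polyamine list 3 of 8 genes were higher (Arg1, Arg2 at least 1.66-fold, and Odc1) and 1 was lower (Srm). Odc1, which takes ornithine into polyamines, had 8.81 and 8.85 against 7.07 and 6.87 (3.63-fold, adjusted p = 8.04e-05). Srm, which makes spermidine, lost its call (-0.78 ± 0.16) without either MI heart array or peritoneal replicate 1, leaving 0 lower.

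Subunits and feedback inhibitors of NF-kB, the transcription factor that inflammatory signals switch on, were higher for 13 of 14 and lower for 0 (median 1.29, or 1.21 at bounds). The largest difference in the list was in the inhibitor-like gene Nfkbiz, which had 9.94 and 9.35 in MI heart, against 6.99 and 6.48 in peritoneal cavity (7.53-fold, adjusted p = 6.36e-05). Nfkbid rose 6.17-fold and Nfkbie 5.96-fold, the adaptor Traf1 was at least 6.11-fold higher, and Tnfaip3, which edits ubiquitin chains to end the signal, at least 2.59-fold. Of the subunits, Rel rose by 1.61 ± 0.20, while Rela gave no call (0.43, adjusted p = 0.20). Counts were 9, 8, 9 and 10 with 1 array left out. Toll-like receptors and their adaptors were higher for 4 of 18 and lower for 2 (median 0.43, or 0.26 at bounds). Tlr2, which senses bacterial lipoproteins, had 7.78 and 8.10 against 5.28 and 5.47 (5.92-fold), and Tlr9 was at least 2.80-fold higher. Tlr4, the lipopolysaccharide receptor, gave no call (0.24), and the lipopolysaccharide-binding protein gene Lbp was at least 2.07-fold lower. The adaptor Tirap was the other lower member (-0.79 ± 0.20) and lost its call without any 1 of the 4 arrays, leaving 1.

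Interferon-stimulated genes, which encode antiviral effectors, were higher in MI heart for 11 of 13 tested members and lower for 0 (median 1.15, or 1.05 at bounds). With 1 array left out 7, 9, 7 and 7 were higher. Rsad2 (viperin) had 8.34 and 8.31 on MI heart arrays, against 4.24 and 4.42 on peritoneal arrays (adjusted p = 2.45e-06). Ifit2 had 8.02 and 8.06 against 4.23 and 4.23 and was at least 12.2-fold higher. The ubiquitin-like modifier Isg15 had 7.01 and 6.61 against 4.20 and 4.37 and was at least 5.19-fold higher. Ifit3 was above background on all 4 arrays, at 7.26 and 7.33 against 5.12 and 5.00 (4.71-fold, adjusted p = 7.34e-05). The groups lay apart in all 4 genes. Bst2 had 6.00 and 4.93 against 4.76 and 4.37 and gave no call (0.90, adjusted p = 0.084), nor did Ifitm3 (0.21).

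Promoter windows of 3 of these genes show the interferon-stimulated response element, the DNA motif bound by interferon-activated transcription factors. Windows run from 250 bases before to 50 bases after a RefSeq transcript start (GRCm38.p6) and are written 5′ to 3′ on the strand of the gene. The motif was searched as GAAA, any 2 bases and GAAA, on both strands and allowing overlaps, and was found in 1131 of 32851 windows, or 3.44%. Of 12 interferon-stimulated genes with a window, 7 held it, among them 5 of the 10 matched genes that were higher. Here and below a gene was counted if any of its windows held a match, and some genes had up to 4 windows. Counts of genes are therefore not directly comparable with shares of windows. Capitals mark the matches, which read as the reverse complement in Rsad2 (chr12:26456403-26456702, minus strand, 1 match) and Ifit3 (chr19:34583279-34583578, plus strand, 2 matches) and as written in Isg15 (chr4:156200769-156201068, minus strand, 3 overlapping matches).
Rsad2: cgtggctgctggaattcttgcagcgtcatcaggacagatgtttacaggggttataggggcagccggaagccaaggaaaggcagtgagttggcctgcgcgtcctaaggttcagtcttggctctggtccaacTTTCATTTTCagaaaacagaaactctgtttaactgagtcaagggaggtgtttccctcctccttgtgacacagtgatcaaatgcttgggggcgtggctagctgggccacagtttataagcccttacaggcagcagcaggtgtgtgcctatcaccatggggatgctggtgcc
Isg15: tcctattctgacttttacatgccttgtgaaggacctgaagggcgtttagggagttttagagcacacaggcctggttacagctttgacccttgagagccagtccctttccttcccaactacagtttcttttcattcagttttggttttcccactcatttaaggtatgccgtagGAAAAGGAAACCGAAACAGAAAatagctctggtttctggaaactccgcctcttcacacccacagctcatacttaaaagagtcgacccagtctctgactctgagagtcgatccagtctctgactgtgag
Ifit3: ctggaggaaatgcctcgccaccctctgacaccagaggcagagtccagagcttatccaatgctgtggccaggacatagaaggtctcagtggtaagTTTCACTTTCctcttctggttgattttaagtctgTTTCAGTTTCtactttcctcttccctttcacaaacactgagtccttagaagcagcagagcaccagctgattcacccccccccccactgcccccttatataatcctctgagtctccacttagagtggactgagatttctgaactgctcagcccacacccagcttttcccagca
The 2 windows of Ifit2 held no match to these letters. Matches were also counted for the other factors named above and below. An NF-kB site, written as GGGA, any 2 bases and TTCC, was in 1.47% of all windows. It was in 2 of 12 matched genes of the NF-kB list, Nfkbia among them, and in 2 of the 11 that were higher. A heat-shock element, written as GAA, TTC and GAA with any 2 bases between them, was in 0.603% of all windows. It was in 3 of 11 matched chaperone genes, Hsph1 among them, and in 2 of the 8 that were higher. ACGTG, the core of the hypoxia response element, was in 19.6% of all windows. It was in 12 of 17 glycolysis genes and in 4 of the 6 that were higher. These are descriptions of letters in the windows, not of binding.

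Immediate early genes, which cells switch on within minutes of a stimulus, were higher in MI heart for 16 of 21 tested genes and lower for 1 (median 1.5). Fosb had 8.16 and 7.94 on MI heart arrays, against 4.35 and 4.39 on peritoneal arrays. Egr2 had 8.46 and 8.76 against 5.24 and 5.34 (9.98-fold, adjusted p = 1.06e-05). The nuclear receptors Nr4a2 and Nr4a3 were at least 7.42-fold and 4.10-fold higher. The stress factor Atf3 was at least 3.23-fold higher, and Zfp36, which destabilizes cytokine messages, rose 2.34-fold. Jun (0.59, adjusted p = 0.085) and Jund (0.60, adjusted p = 0.13) gave no call. Klf2, a factor that quiets macrophages, was the 1 lower member (5.77 and 5.37 against 6.90 and 7.22, 2.81-fold lower), and it lost its call without MI heart replicate 2 or peritoneal replicate 2, leaving 0 lower.

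Heat-shock chaperones were higher for 10 of 13 tested genes and lower for 0 (median 1.01), with 5, 6, 6 and 6 higher when 1 array was left out. Hspa1a had 8.99 and 9.0 in MI heart, against 5.32 and 4.72 in peritoneal cavity, and Hspa1b was at least 4.54-fold higher. Hsph1, which helps HSP70 proteins to release their substrate, had 8.50 and 8.42 against 6.56 and 6.04 (4.47-fold), and their partner Bag3 rose 3.11-fold. The endoplasmic reticulum chaperone Hspa5 gave no call (0.56, adjusted p = 0.082). Immediate early and heat-shock genes are also known to respond to tissue dissociation, and the part of cell isolation in these values was not tested.

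Growth factors and repair signals were higher for 7 of 14 and lower for 1 (median 1.21, or 1.13 at bounds). Vegfa, which drives vessel growth, had 7.38 and 7.13 in MI heart, against 4.20 and 4.19 in peritoneal cavity, and was at least 7.07-fold higher (adjusted p = 6.09e-06). Osm (oncostatin M) had 10.60 and 10.66 against 8.15 and 7.80 (6.29-fold), Hbegf rose 4.34-fold and Pdgfb was at least 2.35-fold higher. Pdgfa, at 6.93 and 7.67 against 5.82 and 5.39, lost its call without MI heart replicate 2 or either peritoneal array (adjusted p up to 0.11). Igf1 was bright in both groups, with 8.93 and 9.42 against 9.18 and 9.23 (-0.03, adjusted p = 0.94). Tgfb1 gave no call (0.17), and Tgfb2 was the lower member.

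Matrix proteins and matrix enzymes were higher for 12 of 22 and lower for 3 (median 0.71), with 7, 10, 8 and 7 higher when 1 array was left out. The collagenase activator Mmp14 had 7.36 and 7.12 in MI heart, against 4.21 and 4.20 in peritoneal cavity, and was at least 7.03-fold higher (adjusted p = 1.03e-05). Mmp12, the macrophage elastase, was at least 3.90-fold higher, and Mmp13, above background on 1 peritoneal array, rose by 2.37 ± 0.23. The inhibitor Timp1 was at least 2.84-fold higher, the matrix glycoprotein Sparc at least 3.70-fold, and Lgals1 rose 4.64-fold. The lower members were Fn1 (fibronectin, 7.91 and 7.73 against 9.44 and 9.53, 3.17-fold lower), Ecm1 (2.54-fold lower) and Timp2 (-0.97 ± 0.27), which lost its call without any 1 of the 4 arrays. Fibroblast markers, given above, were higher in MI heart beside these genes.

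In the coagulation and plasminogen list 3 of 11 genes were higher and 4 lower (median 0.16). Plau (urokinase) had 9.30 and 9.67 on MI heart arrays, against 6.58 and 6.04 on peritoneal arrays (9.02-fold, adjusted p = 3.17e-05). Plaur rose 2.04-fold, and F13a1 1.69-fold. Plaur lost its call without any 1 of the 4 arrays, and F13a1 without MI heart replicate 2 or either peritoneal array, so that 2, 1, 1 and 1 were higher. F10 (9.95 and 9.03 against 10.66 and 10.62) lost its call without MI heart replicate 2 or either peritoneal array (adjusted p up to 0.20). The anticoagulant Pros1 had 7.20 and 7.22 against 8.72 and 9.27 (3.45-fold lower), and F5 and Serpinb2 were the other lower members. Complement genes were higher for 2 of 10 and lower for 3 (median -0.13). C4b was 3.06-fold lower, and the opsonin chains C1qa (-0.02), C1qb (0.07) and C1qc (-0.26) gave no call. C6 lost its call without MI heart replicate 2 or peritoneal replicate 2, leaving 1 higher. Cfp, which stabilizes the complement convertase, lost its call without MI heart replicate 2 or either peritoneal array, leaving 2 lower.

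Glycolysis genes were higher for 6 of 17 and lower for 0 (median 0.60), with 2, 4, 3 and 3 higher when 1 array was left out. The glucose transporter Slc2a1 had 8.71 and 8.05 in MI heart, against 5.01 and 5.47 in peritoneal cavity (8.82-fold, adjusted p = 7.69e-05). Pfkfb4, which raises the activator of phosphofructokinase, rose 2.38-fold. Pgk1, Tpi1 and Aldoa were called between 1.52-fold and 2.23-fold, and each lost its call with at least 3 of the 4 arrays left out in turn. The lactate exporter Slc16a3 rose 2.92-fold and lost its call without MI heart replicate 1. Its difference in that run was 0.02, near that of its dimmer probe (-0.03), and whether another probe stood for the gene there was not tested. Without MI heart replicate 1 Pfkl, a phosphofructokinase subunit, was called lower (-1.05). Gapdh gave no call (-0.13), and neither did Ldha (0.28) or Pkm (0.54). Of 2 Pkm probes the other was called higher (1.48), and Pkm was called when its probes were averaged or the replicate number was a block. Of hypoxia response genes outside glycolysis 4 of 13 were higher and 2 lower (median 0.25, or 0.24 at bounds). Hif1a, the oxygen-regulated subunit, had 5.99 and 6.11 against 4.88 and 4.86 (2.27-fold, adjusted p = 0.000791). The lower ones were its paralogue Epas1 and the oxygen sensor Egln3, and these were lost without either MI heart array or peritoneal replicate 1, so that 0, 0, 0 and 2 were lower. Egln3 was also lost without either intact heart array, leaving 1. Car9, a gene that hypoxia induces in many cells, was above background on both MI heart and 0 peritoneal arrays and gave no call (0.25).

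Few genes of mitochondrial oxidation were called. Of 20 tested genes of the citric acid cycle and oxidative phosphorylation 0 were higher and 1 was lower (Ndufa4, -0.92 ± 0.18, 0 without either MI heart array or peritoneal replicate 2). The median was -0.10. Of 13 fatty acid oxidation genes 0 were higher and 1 was lower (Acaa2, -0.91 ± 0.16, 0 without MI heart replicate 2 or peritoneal replicate 1), with a median of -0.33. Cell cycle genes were higher for 1 of 15 (Cdca8, adjusted p up to 0.20 without any 1 of the 4 arrays), and cholesterol synthesis genes for 1 of 10 (Fdps, adjusted p up to 0.072 without any 1 of the 4). A missing call does not show that levels were alike, since tests on simulated data recovered 64% of genes changed by 1 log2 unit and 94% of those changed by 2. The simulation changed 50 genes per size among 10533 and set no background limit, so its rates may differ from those of the real data.

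Receptors by which macrophages take up particles differed by gene. Of scavenger and C-type lectin receptors 9 of 17 were higher and 2 lower (median 0.66), with 5, 5, 6 and 5 higher when 1 array was left out. Clec4n (dectin-2), a receptor for fungal sugars, had 7.36 and 7.60 in MI heart, against 4.30 and 4.65 in peritoneal cavity (3.00 ± 0.30, adjusted p = 0.000194), and was above background on 1 peritoneal array. The scavenger receptor Msr1 was lower, at 6.25 and 6.27 against 7.39 and 7.42 (2.21-fold lower, adjusted p = 0.000987). Cd209b was the other lower member and lost its call without either peritoneal array, leaving 1 lower. Its difference lay between -1.46 and -0.26 over the alternative runs and between -1.37 and -0.33 over its 3 probes. Whether another probe stood for it in some runs was not tested. Of Fc receptors, which bind antibodies, 4 of 7 were higher and 0 lower (median 1.36). Fcgr4, an activating receptor, had 11.05 and 10.38 against 8.62 and 8.03 (5.26-fold), while Fcgr3 gave no call (-0.30).

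Genes for the uptake of apoptotic cells were higher for 5 of 15 and lower for 3 (median -0.07). The receptor Axl had 7.20 and 7.50 in MI heart, against 5.52 and 5.57 in peritoneal cavity (3.50-fold, adjusted p = 0.000437), and its ligand Gas6 rose with it. The related receptor Mertk was near equal, with 6.45 and 6.67 against 6.44 and 6.82 (-0.07, adjusted p = 0.90). Of the bridging proteins, Mfge8 had 7.92 and 8.71 against 10.38 and 10.25 (4.00-fold lower, adjusted p = 0.000624), and Pros1 and the receptor Timd4 were lower too. The integrin chains that bind Mfge8 and matrix rose, Itgav 3.62-fold and Itgb5 at least 3.16-fold. In the list of integrins other than CD11b 4 of 11 were higher and 2 lower (median -0.06). The lower ones, Itga6 (4.23 and 5.37 against 6.67 and 6.78) and Itga4, lost their calls without either peritoneal array, and Itga4 also without either MI heart array, so that 1, 1, 0 and 0 were lower. On MI heart replicate 1 the Itga6 probe shown lay below the lowest signal above background.

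Genes of lipid-associated macrophages, a state described in obese and damaged tissue, were higher for 7 of 18 and lower for 4 (median 0.22), with 4, 4, 5 and 3 higher when 1 array was left out. Beside Gpnmb, the tetraspanin Cd63 had 8.64 and 9.39 in MI heart, against 6.92 and 6.61 in peritoneal cavity (4.77-fold). The lipid-sensing nuclear receptor Nr1h3 had 7.17 and 6.24 against 4.32 and 4.71 (2.19 ± 0.28), above background on 1 peritoneal array. Trem2, the lipid receptor of this state, had 7.16 and 7.75 against 6.21 and 5.20 (3.36-fold, adjusted p = 0.00532) and lost its call without MI heart replicate 2 or peritoneal replicate 2 (adjusted p up to 0.10). The lower members were Apoc1, the tetraspanin Cd9 (5.87 and 5.68 against 7.47 and 7.57, 3.35-fold lower), the lipase Lpl (3.03-fold lower) and Msr1. Apoe was bright in both groups, with 10.92 and 11.36 against 11.07 and 11.56 (-0.17, adjusted p = 0.65).

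Genes linked with retinoids, the signal behind Gata6 in the peritoneal cavity, were higher for 2 of 9 and lower for 4 (median -0.24). The higher ones were Rdh11 and Tgm2, a cross-linking enzyme also counted under alternative activation. Cyp26a1, which breaks down retinoic acid, was not above background in MI heart and at least 1.61-fold lower. Dhrs3, which turns retinal back to retinol, had 4.80 and 5.26 in MI heart, against 6.27 and 6.11 in peritoneal cavity (2.23-fold lower). Aldh1a2, which makes retinoic acid, lost its call (-0.62 ± 0.17) without any 1 of the 4 arrays, Dhrs3 without peritoneal replicate 1 and Rdh11 without MI heart replicate 1 or peritoneal replicate 2. With 1 array left out 1, 2, 2 and 1 genes were higher and 3, 3, 2 and 3 lower.

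Heme and iron genes were higher for 7 of 17 and lower for 1 (median 0.45), with 6, 4, 4 and 4 higher when 1 array was left out. Hmox1, which degrades heme, had 6.51 and 6.96 in MI heart, against 4.80 and 4.57 in peritoneal cavity (4.13-fold, adjusted p = 0.000146). The iron exporter Slc40a1 (ferroportin) had 6.20 and 6.48 against 4.32 and 4.28, where it was not above background, and was at least 3.76-fold higher. Cd163, which takes up haemoglobin, is the third member of this route and also rose. The transferrin gene Trf was lower (2.37-fold, adjusted p = 0.00063). The haemoglobin transcripts given above lay in the opposite direction.

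Transcription factors of macrophages were higher for 9 of 25 and lower for 3 (median 0.36), with 6, 4, 4 and 6 higher when 1 array was left out. Runx1 had 6.50 and 6.51 in MI heart, against 4.82 and 4.86 in peritoneal cavity (3.17-fold, adjusted p = 0.000103). Nr1h3, Pparg and Hif1a also rose and kept their calls. Maf had 6.40 and 6.59 against 5.25 and 5.26 (2.36-fold) and lost its call without any 1 of the 4 arrays (adjusted p up to 0.11). The lower members were Gata6, Rarb and Klf2. Spi1, the factor that all macrophages need, gave no call (0.23), nor did Cebpb (0.39) or Zeb2 (0.05).

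The values of the intact heart, given only for genes already named, show where they lay beside both groups. The comparisons share arrays, so their values stand side by side and are not independent, and the genes were chosen after their values were seen. Over all tests 4.57% were called higher and 4.97% lower in MI heart than in intact heart. Several genes that were brightest in peritoneal cavity were higher in MI heart than in intact heart. Slpi had 7.70 and 6.62 in MI heart, against 10.52 and 10.63 in peritoneal cavity and 4.19 and 4.51 in intact heart, with an MI heart minus peritoneal difference of -3.42 ± 0.31 and an MI heart minus intact heart difference of 2.81 ± 0.31 (adjusted p = 0.00131). Fn1 had 7.91 and 7.73 in MI heart, against 9.44 and 9.53 in peritoneal cavity and 5.10 and 4.86 in intact heart (MI heart minus intact heart 2.84 ± 0.17, adjusted p = 5.87e-05). Ecm1 and F10 were also higher in MI heart than in intact heart, with MI heart minus peritoneal differences of -1.34 and -1.15. Saa3 and Thbs1 were higher than in intact heart too, but their MI heart minus peritoneal differences (-0.54 and -0.11) were not called. Icam2, Ptgis and Gata6 lay low in both heart groups, with means of 5.24, 4.29 and 4.17 in MI heart and 4.40, 4.23 and 4.21 in intact heart.

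Of the 966 tests higher in MI heart than in peritoneal cavity, 204 were also called higher than in intact heart. A further 681 were not called against intact heart, and 81 were called lower. Those not called included Il1b (0.28), Ccl7 (0.08) and Cxcl10 (0.65). Of the 892 tests lower than in peritoneal cavity, 42 were called higher than in intact heart, 83 lower and 767 neither. Some named genes that separated MI heart from peritoneal cavity had near equal values in both heart groups. Ccl4 had 11.17 and 10.93 in MI heart and 10.83 and 11.02 in intact heart (0.12, adjusted p = 0.72), Cxcr4 7.59 and 7.60 in MI heart and 7.59 and 7.59 in intact heart (0.00, adjusted p = 1.00), and H2-Eb1 9.44 and 9.21 in MI heart and 9.74 and 9.25 in intact heart (-0.17, adjusted p = 0.65). A further set was high in MI heart beside both. Vegfa, at 7.38 and 7.13 in MI heart, had 4.20 and 4.19 in peritoneal cavity and 4.23 and 4.29 in intact heart, not above background on any of these 4 arrays. Gpnmb differed from intact heart by 3.84 ± 0.27 (adjusted p = 0.000138) and Rsad2 by 1.58 (adjusted p = 0.000795), and both calls held under every alternative run that tested them. Hspa1a was lower in MI heart, at 8.99 and 9.0, than in intact heart, at 10.59 and 11.09 (-1.84, adjusted p = 0.0027), a call lost without either MI heart array. Hspa1b (-2.84, adjusted p = 8.59e-05), Hsph1 (-1.94, adjusted p = 0.0014) and Bag3 (-2.11, adjusted p = 0.000943) were also lower than in intact heart. Hspa5 gave no call against intact heart (-0.34).

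**Figure D4:**
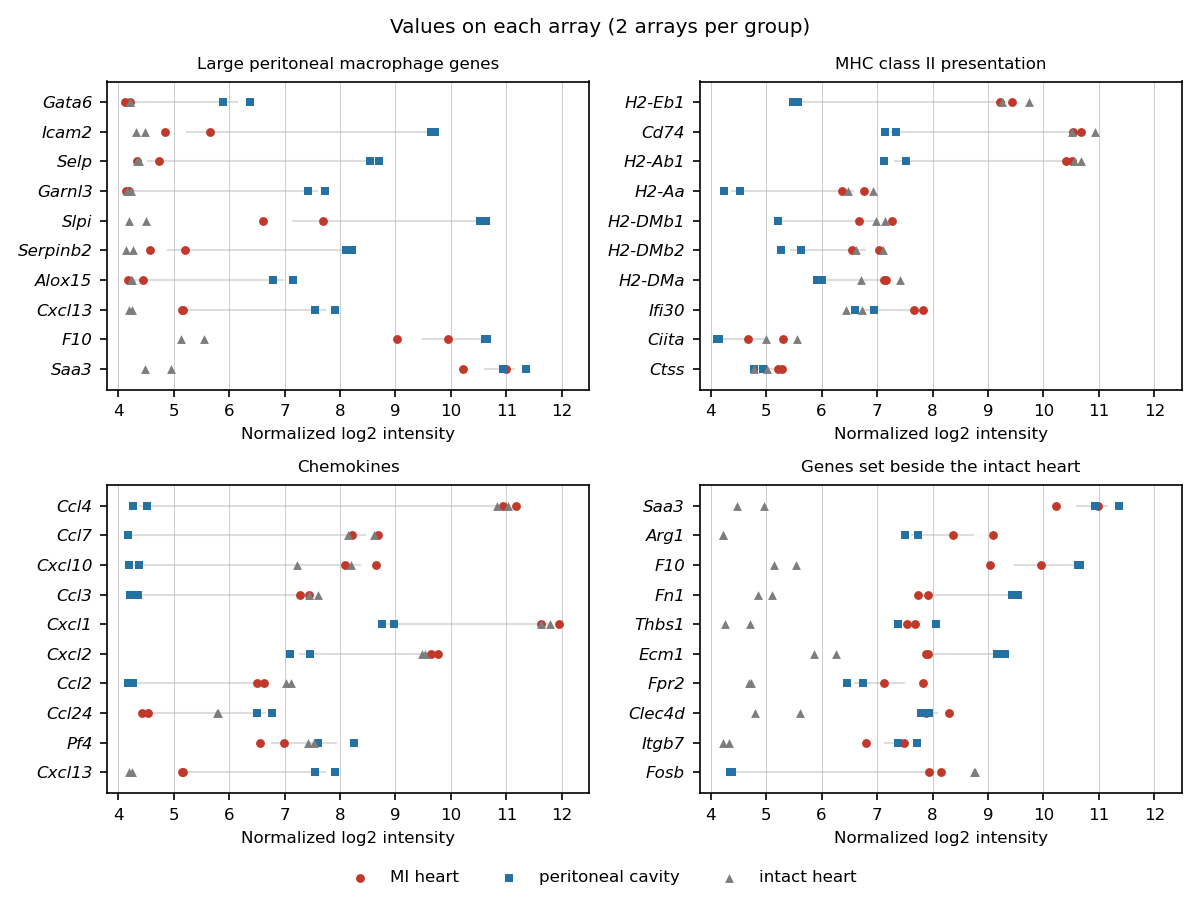
Normalized log2 intensity on the horizontal axis for genes of 4 panels on each array, as red circles for MI heart, blue squares for peritoneal cavity and grey triangles for intact heart (2 arrays per group), with a grey line joining the means of MI heart and peritoneal cavity. Ccl4 and H2-Eb1 lie alike in both heart groups, while Slpi and Fn1 in MI heart lie between intact heart and peritoneal cavity.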

How the data were processed

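Per the file headers, the deposited table lists each probe's linear intensity and its detection p-value on every array, and the authors neither normalized these intensities nor subtracted background. Per the labels' protocols, total RNA was labelled with biotin for Illumina arrays. The scanner software is not given in the sources used here, nor is the method behind the detection p-values. A second table, the series matrix, has the authors' linear intensities, not centred, on a common distribution (medians 81.5053 to 81.5146, the same maximum of 11603.8), and was used as an alternative. By rank order, its replicate numbers are swapped against the deposited table in MI heart and peritoneal cavity, with groups unchanged, and the numbers of the deposited table are used here. The number of unused columns of values per sample was 0.

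In R 4.3.3 with limma 3.58.1, neqc (negative controls inferred from detection p-values, offset 16, quantile normalization, log2) was applied to all 6 arrays. The filter kept the 14817 probes that had a detection p under 0.05 on each of the 2 arrays of some group. In the platform annotation 34885 probes had 1 symbol, 18 had several and 10378 had none, and 0 symbols changed among the 34807 with an Entrez identifier in the reference table (GRCm38.p6). The probe with the highest mean represented each symbol, which gave 8244 genes and 2289 unnamed probes. Group means were fitted with lmFit and eBayes over all 6 arrays (3 residual and 5.79 prior degrees of freedom). Bounds set the mean of the brighter group against the lowest signal above background on each dim array (the gene's value there where that was higher) and take no account of the spread. A sum over a marker list adds the unlogged normalized values.

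Text names the 10 largest measured and 8 largest bounded differences per direction, the defining genes and list members with the largest differences, with further members chosen after their values were seen. The members and lists were chosen with earlier results of these data known. Tests on simulated data with 50 genes per size recovered 64%, 94%, 100% and 100% of log2 changes of 1, 2, 3 and 4. The number of arrays limits the precision. Alternatives were other background corrections, scalings, filters, probe rules, a replicate block, the 4 arrays alone and each array left out.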

Additional observations from a re-analysis of the deposited data

How the results depend on the processing

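Of 254 called genes followed, 156 kept their call in every alternative run that tested them, 98 lost it in at least 1 and 0 changed direction. Of 217 genes not called 41 gained a call in at least 1. All 36 genes with the largest measured or bounded differences kept their calls where they were tested. Gpnmb was tested in 16 alternative runs, but others, such as Il10 and Icam2, in 15. Against 966 higher and 892 lower, testing without the filter gave 583 higher and 599 lower (29453 tests), and a stricter filter 537 and 517 (5135 tests). The stricter filter left list members untested, so counts in many lists fell. The large peritoneal programme went from 14 lower to 3. Counts higher went from 12 to 3 for chemokines, 13 to 5 for the NF-kB list and 16 to 8 for immediate early genes. Leaving out 1 array in turn gave 481 to 1093 higher and 342 to 1039 lower, with the low ends from MI heart and peritoneal arrays. Median scaling gave 769 and 787, no background correction 733 and 722, and the series matrix 727 and 711. The share of calls that were higher, 52.0%, lay between 49.3% and 59.9%. Same-numbered arrays are tied by no label, and the correlation of their deviations was 0.169 between MI heart and peritoneal cavity. With a replicate block 1099 were higher and 1049 lower. Slc16a3, MI heart minus intact heart, changed sign without MI heart replicate 1 (-0.28, and up to 2.15 with another array left out). Its MI heart minus peritoneal difference in that run was 0.02, near that of its dimmer probe (-0.03). The cause, such as another probe standing for the gene in that run, was not tested. With 2 arrays per group, changes near 1 log2 unit can be missed, and for genes not above background only a bound is known.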
